A study of Mus musculus with 1086 samples.

Results

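Liver mRNA of 16 adult male CAST/EiJ mice was sequenced, 8 fed a high fat diet and 8 fed chow, and the libraries of both diets were compared here. CAST/EiJ is an inbred strain derived from wild Mus musculus castaneus and is a founder of the Diversity Outbred stock. These 16 libraries are the CAST columns of a table of 128 founder males, within a series of 1086 sequencing records from 414 animals. All 16 mice were 26 weeks old, and their livers were snap frozen. Feeding began at 4 weeks of age. The labels describe the founder diets in 2 ways that were not resolved here: a control diet with 17% of energy from fat against a high fat, high sucrose diet with 45% of energy from fat and 34% sucrose by weight, or chow with 6% fat by weight against a diet with 22% fat by weight. The other 7 founder strains, WSB/EiJ, PWK/PhJ, NZO/HILtJ, A/J, 129S1/SvImJ, NOD/ShiLtJ and C57BL/6J, were fed in the same way with 8 males per diet, and NZO/HILtJ was killed at 20 weeks. Each library is 1 mouse, named below by its diet and an arbitrary number (high fat 1 to 8, chow 1 to 8).

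The liver makes cholesterol from acetyl units through the mevalonate pathway, and it also takes up cholesterol from blood. The transcription factor SREBP2, encoded by Srebf2, switches on genes of both routes when sterols in the endoplasmic reticulum are low, and sterols from the diet hold it in an inactive form. The liver also turns cholesterol and steroids into bile acids and inactive products, clears foreign compounds with cytochrome P450 enzymes, and stores or burns the fatty acids that a fat-rich diet supplies.

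Levels are given as count equivalents, the deposited value multiplied by one constant for the whole table, so that 1 unit is about 1 read in a library of middle depth. Recovered totals ran from 6460500 to 14013200 reads in the 16 libraries and did not separate the diets (exact permutation test, two-sided, p = 0.247, adjusted over 14 depth and marker values 0.691). A gene's change is high fat minus chow on the log2 scale of count equivalents plus 1, with the standard error of a limma model over all 128 founder libraries. That pseudocount makes the change of low genes smaller. P-values were adjusted by Benjamini-Hochberg over all 13533 genes tested, and a change is called at an adjusted p under 0.05. These are bulk tissue samples, in which fewer cells of a type and less RNA per cell cannot be told apart.

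Several CAST libraries stood apart from the others without following the diets. Iigp1, an interferon-inducible GTPase gene, was at 1507 to 1921 count equivalents in high fat 3, high fat 4, chow 1 and chow 3, at 8.20 to 91.1 in the other 12 CAST libraries, and at medians of 2574 to 4279 in the other 7 strains. In all, 66 of the 13533 genes tested placed these 4 libraries apart from the other 12. The 4 were picked from these same data, so this count describes them and tests nothing. At genes that separate CAST from another strain, the same 4 libraries lay on average 6.24% to 7.91% of the way to the other strains. The averages of the other 12 were at most 2.87%, in high fat 5. Toward single strains the values overlapped, with high fat 5 at up to 6.74% and chow 3 as low as 2.39%. Chow 1 was also farthest from the rest on the first principal component (19.2% of the variance) and high fat 6 on the second (14.4%). Where a call is lost without the 4 libraries marked by Iigp1, or without high fat 6 and chow 1, the adjusted p without them is given.

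The high fat diet changed 1.17% of the 13533 genes in CAST liver, with 69 higher (0.51%) and 89 lower (0.658%), and 83 of them moved by more than 2-fold. Genes of cholesterol synthesis were the listed group with the most falls. Genes that rose included the P450 genes Cyp3a11, Cyp3a16, Cyp2c67 and Cyp2c70 and the serpins Serpina12 and Serpina3c. In 26 genes (0.192% of those tested) the 8 high fat values did not overlap the 8 chow values, 9 with all high fat values above (0.0665%) and 17 with all below (0.126%). Without the 4 libraries marked by Iigp1, 43 genes were higher and 68 lower, and 80 of these were among the calls from all 16 mice. The count rests on a spread shared by all 16 groups of strain and diet: limma on the CAST libraries alone called 29 genes, 24 of them shared with the calls above. With the sequencing lane as a block in that fit limma called 0, with 826 of 13533 genes at an unadjusted p under 0.05. The fit of all 128 libraries without that block had 1459 of 13533 genes at an unadjusted p under 0.05. With the lane block in the fit of all 128 libraries, 64 genes were higher and 85 lower.

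Of 24 genes of cholesterol synthesis and uptake that were tested, 13 fell on the high fat diet and 0 rose, against 0.658% of all genes called lower. All 24 changes were negative, with a median of -1.10 on the log2 scale beside 0.0045 over all genes tested. The high fat libraries lay at a list median of -1.61 to -0.82 relative to the mean of the chow libraries, and the chow libraries ran from -0.48 in chow 7 to 1.15 in chow 6. Every high fat library was therefore below every chow library for the list as a whole, although chow varied widely. Of the 24 genes, 12 were called lower without the 4 libraries marked by Iigp1. Limma on the CAST libraries alone called 6, among them Sqle, Cyp51, Pmvk and Tm7sf2.

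**Figure D1:**
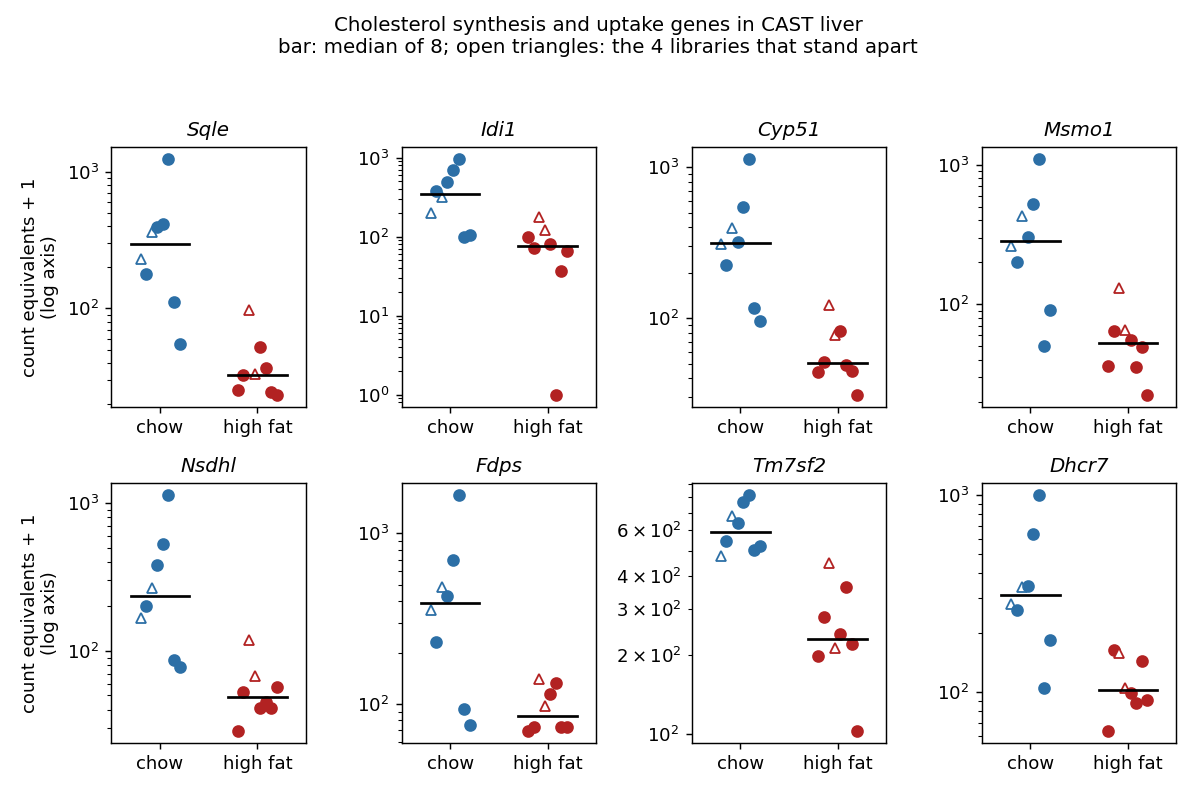
Count equivalents plus 1 (log axis) of 8 cholesterol genes in 8 chow and 8 high fat CAST livers, 1 point a mouse, with the median as a bar. Tm7sf2 separates the diets fully, while in the other 7 genes chow 7 and chow 8 come closest to the high fat libraries and chow 6 is highest.

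The promoters of 5 of these genes are shown because the genes moved together. Each line holds the 250 bases upstream of the annotated start, 5′ to 3′ on the gene's strand, from RefSeq on GRCm38.p6, which is the C57BL/6J reference and not CAST sequence. Capitals mark CCAAT, the motif bound by the factor NF-Y, or its reverse complement ATTGG.
Idi1, chr13:8885356-8885605, plus strand: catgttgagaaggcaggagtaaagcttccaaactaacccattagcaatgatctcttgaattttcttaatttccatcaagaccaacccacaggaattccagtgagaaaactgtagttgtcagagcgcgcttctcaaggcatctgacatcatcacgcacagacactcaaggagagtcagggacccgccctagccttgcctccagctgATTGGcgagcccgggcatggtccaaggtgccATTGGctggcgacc
Cyp51, chr5:4104698-4104947, minus strand: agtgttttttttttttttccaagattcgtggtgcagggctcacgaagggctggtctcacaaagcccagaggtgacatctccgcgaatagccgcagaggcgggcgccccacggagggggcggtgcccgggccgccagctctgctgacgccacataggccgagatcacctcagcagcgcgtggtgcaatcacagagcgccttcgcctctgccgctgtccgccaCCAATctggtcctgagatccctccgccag
Msmo1, chr8:64733579-64733828, minus strand: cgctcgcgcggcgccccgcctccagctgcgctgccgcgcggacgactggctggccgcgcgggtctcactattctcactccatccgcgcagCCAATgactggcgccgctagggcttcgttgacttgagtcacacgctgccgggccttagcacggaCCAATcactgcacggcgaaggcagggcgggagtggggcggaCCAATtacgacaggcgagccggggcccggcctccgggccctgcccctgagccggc
Nsdhl, chrX:72918271-72918520, plus strand: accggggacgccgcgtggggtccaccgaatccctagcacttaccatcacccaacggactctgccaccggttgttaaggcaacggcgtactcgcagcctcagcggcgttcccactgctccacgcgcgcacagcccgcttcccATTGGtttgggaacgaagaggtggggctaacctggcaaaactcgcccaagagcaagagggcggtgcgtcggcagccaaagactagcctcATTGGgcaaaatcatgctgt
Tm7sf2, chr19:6067851-6068100, minus strand: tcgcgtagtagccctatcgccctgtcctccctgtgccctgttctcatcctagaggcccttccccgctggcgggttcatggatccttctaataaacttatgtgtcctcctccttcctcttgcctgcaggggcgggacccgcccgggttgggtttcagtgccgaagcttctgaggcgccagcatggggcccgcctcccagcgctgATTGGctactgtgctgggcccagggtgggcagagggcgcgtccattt
A promoter entry was matched for 16 of the 24 genes, and 15 of these genes held CCAAT on either strand in at least 1 promoter, with the motif in 15 of their 19 promoters and in 33.8% of the 32851 mouse promoters of that length. The sterol regulatory element was searched as TCACNCCAC on both strands. It was found in 0 of the 16 genes and in 1.1% of all promoters, which says only that these letters are not in this window.

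Idi1, Fdps and Sqle act between the isoprenoid units and the first sterol. Idi1, which isomerises isopentenyl diphosphate, stood at 96.9, 345 and 958 count equivalents in chow (lowest, median and highest) and at 0, 75.8 and 176 in high fat (log2 change -2.66 ± 0.54, limma adjusted p = 0.000925). High fat 6 alone was listed at 0. The change was -1.96 without high fat 6 and chow 1, and -3.302 without the 4 libraries marked by Iigp1. Fdps, which joins the isoprenoid units to farnesyl diphosphate, went from a chow median of 392 (73.9 to 1677) to 83.97 (68.4 to 139.3), a log2 change of -1.83 ± 0.42. Its diets overlapped through chow 7 and chow 8. Sqle encodes squalene epoxidase, the enzyme that puts oxygen on squalene. It had 54.1, 294 and 1239 count equivalents in chow against 22.4, 31.7 and 97.1 in high fat (-2.82 ± 0.68, limma adjusted p = 0.00908), and its groups overlapped only where high fat 3 exceeded chow 8.

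Enzymes that trim lanosterol to cholesterol followed the same order of animals. Cyp51, the lanosterol demethylase, had 94.9, 314 and 1134 count equivalents in chow and 30.1, 49.5 and 120.6 in high fat (-2.37 ± 0.44, limma adjusted p = 0.00026). Msmo1, the sterol C4 methyl oxidase, had 49.4, 281 and 1101 in chow and 21.4, 51.6 and 129 in high fat (-2.34 ± 0.44). Nsdhl, the dehydrogenase that works with it, had 77.2, 234 and 1131 in chow and 27.8, 47.9 and 117.6 in high fat (-2.25 ± 0.40). In all 3 genes chow 6 was the highest library, and chow 7 and chow 8 were the lowest of the chow group.

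Further steps of the pathway were called as well. Tm7sf2, a sterol reductase, had 476, 592 and 816 count equivalents in chow and 101.9, 230 and 447 in high fat (-1.35 ± 0.23, limma adjusted p = 5.04e-05), with no overlap. Dhcr7, the last reductase before cholesterol, had 104.3, 310 and 998 in chow and 62.6, 101.1 and 163.5 in high fat (-1.55 ± 0.29). Pmvk, the phosphomevalonate kinase near the start of the pathway, fell by 1.51 ± 0.28 on the log2 scale. Hsd17b7 fell by 1.05 ± 0.22 and Lss, the lanosterol synthase, by 0.89 ± 0.25, but both calls were lost without the 4 libraries marked by Iigp1 (limma adjusted p = 0.188 and 0.0871) and without high fat 6 and chow 1 (0.0993 and 0.0814).

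Pmvk, Hsd17b7, Lss, Srebf2 and Insig1 are members of the list that were picked out after their values were seen. Srebf2 itself fell by 0.53 ± 0.15 (limma adjusted p = 0.0395, 0.0823 without the 4 libraries marked by Iigp1, and 0.144 without high fat 6 and chow 1). Insig1, which helps to retain SREBP in the endoplasmic reticulum, did not pass (-1.15 ± 0.34, 0.0634).

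The fall of the cholesterol list was also present in the other strains. By limma 0 of the 24 genes had a CAST response that differed from the mean response of the other 7 strains (2 at an unadjusted p under 0.05). The list's median in those strains was -0.86. Medians by strain ran from -1.07 in NOD/ShiLtJ to -0.70 in WSB/EiJ, beside -1.10 in CAST. For Sqle the mean of the other 7 strains was -3.09, and the difference of 0.27 ± 0.72 had a limma adjusted p of 0.933.

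Fatty acid genes moved far less. Of 18 genes of fatty acid synthesis and desaturation 1 was called, Fads1, the delta-5 desaturase of polyunsaturated fatty acids, with a list median of -0.26. Fads1 had 2997, 3718 and 4317 count equivalents in chow and 1316, 2023 and 2964 in high fat, without overlap (-0.91 ± 0.19, limma adjusted p = 0.00167). The other members were not called, and 0.658% of all genes tested were called lower. Scd1, the stearoyl-CoA desaturase, had a median of 16989 in chow and 25924 in high fat (0.53 ± 0.46, 0.756), and Fasn, the fatty acid synthase, 812 and 530 (-0.59 ± 0.31, 0.503). Srebf1, the factor that drives these genes, had medians of 323 and 327.

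**Figure D2:**
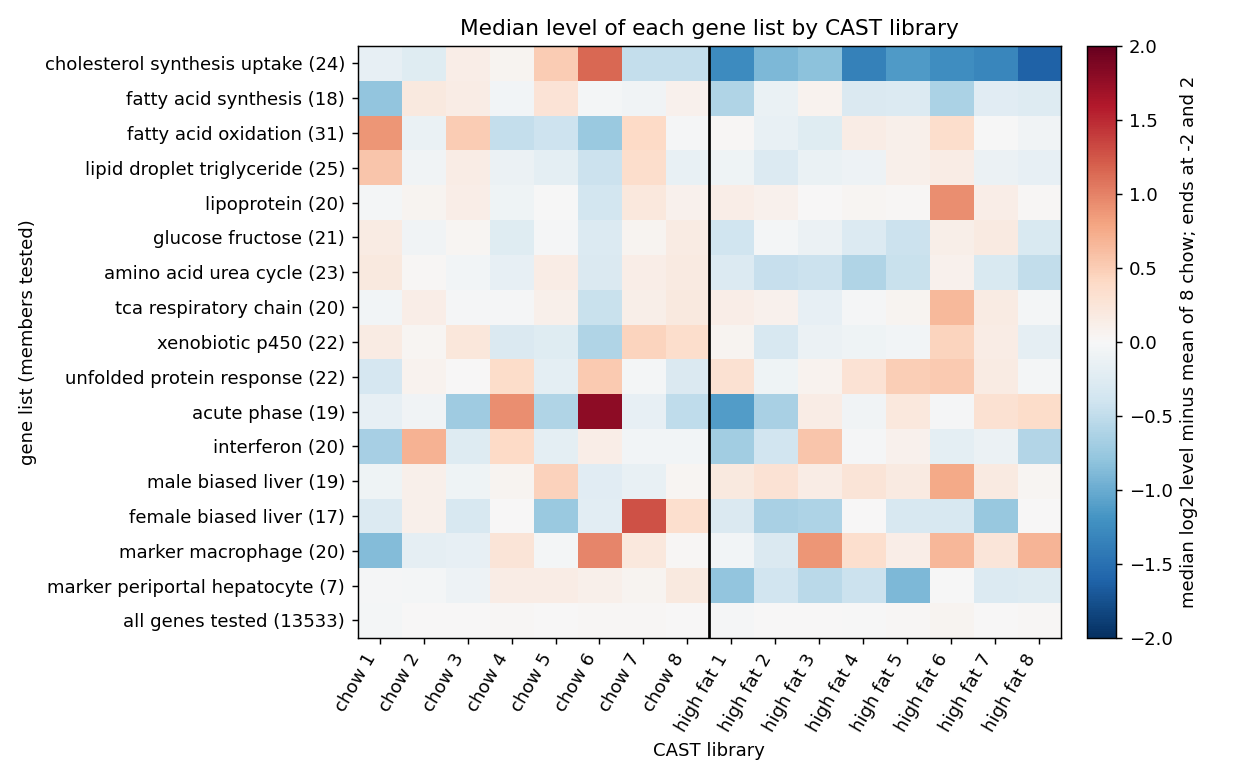
Median log2 level of each gene list in each CAST library relative to the mean of the 8 chow libraries, with the number of members tested in brackets. The cholesterol row is negative in all 8 high fat libraries, while fatty acid oxidation is highest in chow 1 and lipoprotein genes in high fat 6.

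Of 31 genes of fatty acid oxidation limma called 0 for diet (3 at an unadjusted p under 0.05), with a median of 0.04. Over all genes tested 1459 of 13533 were at an unadjusted p under 0.05. Cpt1a, which carries fatty acids into mitochondria, had medians of 4963 in chow and 4468 in high fat. Single chow animals stood out instead. Chow 1 held Cyp4a14, a fatty acid hydroxylase gene driven by PPAR alpha, at 1190 count equivalents and Pdk4, which restrains glucose oxidation and was singled out after its values were seen, at 11932, where the other 15 CAST libraries had at most 104.8 and 387. The list median was 0.88 in chow 1, 0.50 in chow 3 and 0.40 in chow 7, above every high fat library (highest 0.35). It was -0.47 in chow 4, -0.42 in chow 5 and -0.745 in chow 6, below every high fat library (lowest -0.24). The median change of the list was 0.04 in CAST and 0.34 for the mean of the other 7 strains. Over all genes these medians were 0.0045 and -0.0016. By strain the list median ran from 0.12 in WSB/EiJ to 0.75 in NZO/HILtJ. Against the other 7 strains, 2 of the 31 members were called, both lower in CAST, beside 0.591% of all genes. Acot2, an acyl-CoA thioesterase gene, was one of them (-2.04 ± 0.55, limma adjusted p = 0.0433). Its adjusted p was 0.281 without high fat 6 and chow 1, and 0.47 without the 4 libraries marked by Iigp1.

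Lipid storage genes also showed little change in CAST. Of 25 genes of lipid droplets and triglyceride handling 1 rose, Fabp2, a fatty acid binding protein, from a median of 384 to 622 count equivalents (0.71 ± 0.18, limma adjusted p = 0.0145). That call was lost without high fat 6 and chow 1 (0.105). Of all genes tested, 0.51% were called higher. The list's median change was -0.10 in CAST and 0.29 for the mean of the other 7 strains. In those strains it ran from -0.09 in WSB/EiJ to 0.61 in NZO/HILtJ. Plin2, which coats lipid droplets, had 550, 841 and 8246 in chow and 842, 1231 and 3080 in high fat (0.03 ± 0.32, 0.99), and chow 1 and chow 3 held its highest values. Cd36, a fatty acid transporter, had medians of 291 and 240 (-0.24 ± 0.28, 0.849), and Cidec, which enlarges droplets, 19.2 and 23.2 with a range of 4.88 to 674 in chow.

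In 2 lipid storage genes the response differed from the other strains while CAST levels were near 0 on both diets. Fitm1, a triglyceride-binding protein of the endoplasmic reticulum picked out after its values were seen, was at most 2.99 count equivalents in every CAST library. It rose in 6 of the other 7 strains, by 1.35 to 2.65 on the log2 scale, and the difference of responses was -1.55 ± 0.32 (limma adjusted p = 0.00168). Mogat1, a monoacylglycerol acyltransferase, was at most 1.21 in CAST, and it rose in C57BL/6J, 129S1/SvImJ and NZO/HILtJ by 2.80 to 3.72 (difference -1.62 ± 0.42, 0.028, and 0.0525 without the 4 libraries marked by Iigp1).

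Lipoprotein genes had 1 call among 20, beside 1.17% of all genes tested. Apoc3, an apolipoprotein that slows triglyceride clearance, had 6149, 8102 and 9199 count equivalents in chow and 8424, 9661 and 21828 in high fat (0.38 ± 0.10, limma adjusted p = 0.0175). High fat 6 was the highest by far, and without high fat 6 and chow 1 the adjusted p was 0.226. Apoa4 is carried on triglyceride-rich particles. Its change of 1.05 ± 0.31 was not called (0.0718) but was without the 4 libraries marked by Iigp1 (1.49, 0.00803), among which chow 1 held 13509.

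Glucose genes gave 1 call among 21, beside 1.17% of all genes tested, with a list median of -0.26. Ppargc1a, a coactivator of gluconeogenesis, had medians of 129 and 49.2 (-1.57 ± 0.45, limma adjusted p = 0.0546). Igfbp1, an insulin-suppressed binding protein, had medians of 1064 and 852 and reached 30371 in chow 1.

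Of 23 genes of amino acid breakdown and the urea cycle 3 fell and 22 of 23 changes were negative, with a median of -0.39. Over all genes 0.658% fell, and 6601 of 13533 changes were negative. Arg1, the last enzyme of the urea cycle, had 9615, 10794 and 14203 count equivalents in chow and 6654, 7576 and 11965 in high fat (-0.49 ± 0.10, limma adjusted p = 0.0013). High fat 6 alone passed the lower chow values. Cth, which makes cysteine from cystathionine, went from a median of 3961 to 2370 (-0.84 ± 0.19, 0.0045), and its response was lower than that of the other 7 strains (-0.80 ± 0.20, 0.0216). Gls2, the liver glutaminase, went from 2814 to 1716 (-0.66 ± 0.18, 0.0292). Without the 4 libraries marked by Iigp1 the adjusted p was 0.108 for Arg1 and 0.11 for Gls2.

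The summed level of 7 periportal markers, Gls2 among them, was 8245 to 12310 count equivalents in chow and 6033 to 10166 in high fat (exact permutation test, two-sided, p = 0.00124, adjusted 0.0174), while 1 of the 7 was called as a single gene. The sum of 6 pericentral markers was 8011 to 11636 in chow and 10328 to 16211 in high fat (exact permutation p = 0.0225, adjusted 0.105). Of these 6 markers 3 changes were positive and 3 negative, and limma called 0 (2 at an unadjusted p under 0.05). One of them, Glul, glutamine synthetase, had 4068, 6863 and 8307 in chow and 8445, 9242 and 12917 in high fat, without overlap but not called (0.52 ± 0.17, limma adjusted p = 0.138). Glul added most to the pericentral sum, which had medians of 10927 in chow and 12105 in high fat. The sum of 10 hepatocyte markers, to which albumin adds most, was 525056 to 815345 in chow and 396417 to 683674 in high fat (exact permutation p = 0.00497, adjusted 0.0348). Of these 10 limma called 0, with 3 at an unadjusted p under 0.05 beside 1459 of all 13533 genes. The part of these markers in the changes of the amino acid genes was not tested.

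Markers of other cells were not separated by diet after adjustment. Of 20 macrophage markers 17 changes were positive and limma called 0 (4 at an unadjusted p under 0.05), and their sum was 1696 to 6187 in chow and 3073 to 5964 in high fat (exact permutation p = 0.301). Over all genes 6905 of 13533 changes were positive, and 1459 genes were at an unadjusted p under 0.05. Sums for neutrophil, endothelial, stellate and cholangiocyte markers had exact permutation p-values of 0.475 to 0.899. Lymphocyte markers summed to 14.7 to 52.5 in chow and 33.6 to 73.6 in high fat (p = 0.03, adjusted 0.105), with Cd3e at 0 in 14 of the 16 libraries. Cd4 added most to this sum, with medians of 23.1 in chow and 37.8 in high fat beside 37.3 and 57.5 for the sum. It was the only 1 of the 15 markers high enough to be tested singly. Ighm, the immunoglobulin mu heavy chain gene of B cells, rose from a median of 25.03 to 73.5 (1.59 ± 0.43, limma adjusted p = 0.0343, 0.099 without the 4 libraries, and 0.0504 without high fat 6 and chow 1). The part of lymphocytes in the Ighm value was not tested.

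Single genes of steroid and bile acid metabolism were called, while limma called 0 of the 19 genes in the list for bile acid and sterol export. Cyp17a1, the 17-alpha-hydroxylase of steroid synthesis, had 306, 568 and 1084 count equivalents in chow and 20.9, 41.9 and 419 in high fat (-2.99 ± 0.49, limma adjusted p = 2.65e-05). Only high fat 3 and high fat 4, which are among the 4 libraries marked by Iigp1, lay within the chow range. Without those 4 the change was -3.75. The fall was larger than in the other 7 strains (-2.18 ± 0.52, 0.0133), yet WSB/EiJ fell by 2.77, and its difference from CAST of -0.22 had an adjusted p of 0.959.

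Akr1d1 makes the 5-beta-reduced form of bile acid precursors and steroid hormones. It had 604, 767 and 1428 count equivalents in chow and 254, 382 and 774 in high fat (-1.02 ± 0.24, limma adjusted p = 0.00709, and 0.0518 without high fat 6 and chow 1). In 6 of the other 7 strains its change was positive, and the CAST response was lower than their mean by 1.42 ± 0.26 (0.00026) and lower than that of WSB/EiJ (-1.62, 0.00506). Cyp2c70, which hydroxylates bile acids to the muricholic form in mice, had 4212, 8002 and 9817 in chow and 10381, 16446 and 18315 in high fat, without overlap (0.96 ± 0.23, 0.00881). Its adjusted p was 0.181 without the 4 libraries. Cyp7a1, the rate-limiting enzyme of bile acid synthesis, had medians of 1376 and 1235 with ranges of over 10-fold in each diet (-0.20 ± 0.87, 0.965). Slco1a4, an organic anion and bile acid carrier, went from 83.4 to 31.99 (-1.75 ± 0.42, 0.00926), a call that was lost without chow 1 or without chow 3. It was -1.15 (0.313) without the 4 libraries, and its adjusted p was 0.088 without high fat 6 and chow 1.

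**Figure D3:**
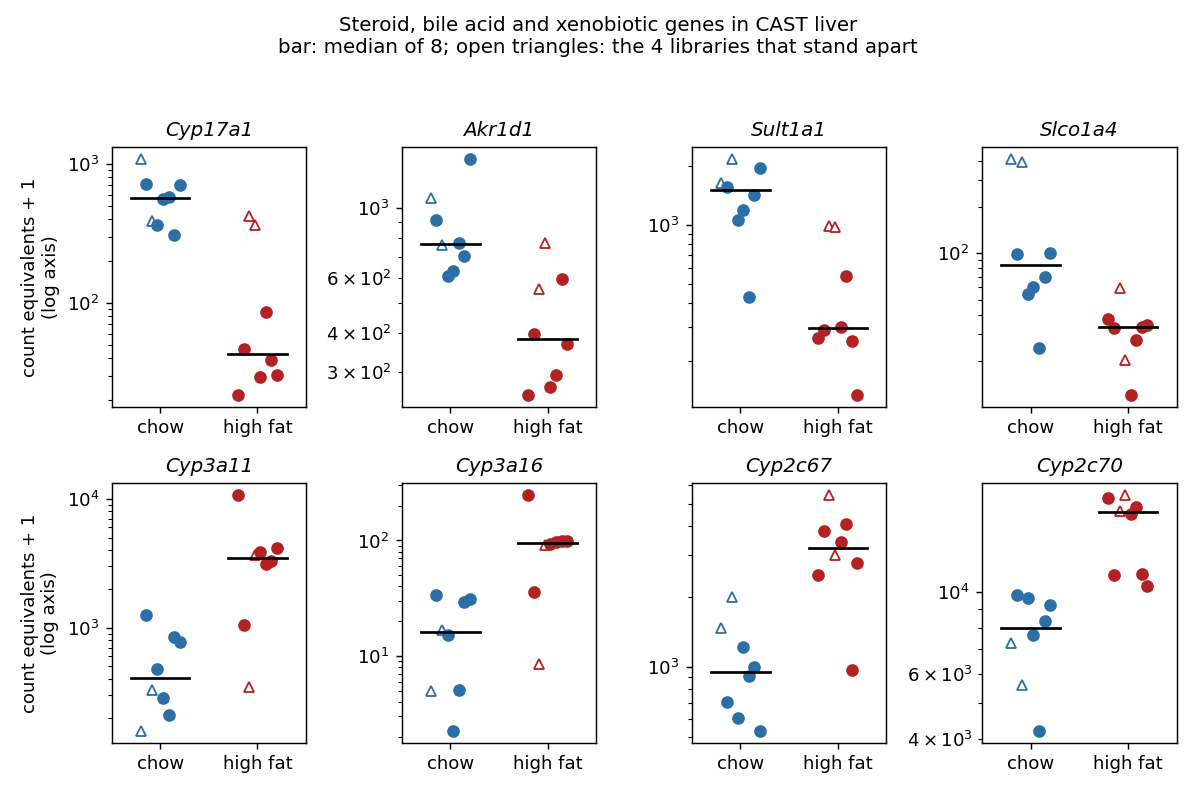
Count equivalents plus 1 (log axis) of 8 genes of steroid, bile acid and xenobiotic metabolism in CAST livers, 1 point a mouse, with the median as a bar. High fat 3 and 4 (open triangles) hold the highest high fat values of Cyp17a1 and Sult1a1, and high fat 3 the lowest of Cyp3a11 and Cyp3a16.

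Of 22 xenobiotic P450 genes and their regulators 1 was called, beside 1.17% of all genes tested. It was Cyp3a11, the main drug-metabolising P450 of mouse liver. Its chow median was 404 count equivalents and its highest chow value 1254, against 343, 3470 and 10675 in high fat (2.61 ± 0.51, limma adjusted p = 0.000572). High fat 2 and high fat 3 remained within the chow range. Cyp3a16, a close relative usually higher in females, had 1.25, 15.03 and 32.5 in chow and 7.59, 94.5 and 246 in high fat (2.55 ± 0.42, 3.18e-05). The other 6 high fat mice were above all chow mice in both genes, and high fat 2 was above them in Cyp3a16. RSEM divides reads between such similar copies, so the values of both genes are uncertain. For Cyp3a16 the CAST response exceeded that of the other 7 strains (2.37 ± 0.45, 0.000662), whose medians were at most 1.32 count equivalents. For Cyp3a11 the difference was not called (1.37 ± 0.55, 0.285). The median change of the 22 listed genes was -0.03 in CAST and 0.44 for the mean of the other 7 strains. In those strains it ran from -0.09 in PWK/PhJ to 0.75 in NOD/ShiLtJ.

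Cyp2c67 rose in 7 mice beyond the chow range. This P450 of the Cyp2c family had 530, 953 and 1982 count equivalents in chow and 972, 3215 and 5438 in high fat (1.62 ± 0.22, limma adjusted p = 3.34e-07). High fat 7 alone fell within the chow range. Its response exceeded that of the other 7 strains by 1.79 ± 0.24 (1e-07) and that of PWK/PhJ by 2.18 (1.3e-06). Sult1a1, a sulfotransferase of phenols, had 423, 1493 and 2162 in chow and 134.2, 295 and 981 in high fat (-1.78 ± 0.27, 3.31e-06). Its response to diet was lower than that of the other 7 strains by 1.56 ± 0.29 (0.000384). High fat 3 and high fat 4 were the highest high fat libraries. The glutathione transferases Gstm6 and Gstp1 were not called for diet (0.44 and 0.73), although their responses exceeded those of the other 7 strains by 0.99 ± 0.21 (0.00295) and 1.08 ± 0.29 (0.0373). For Gstp1 the adjusted p of that difference was 0.141 without high fat 6 and chow 1.

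Serpina12 encodes vaspin, a serpin first described in fat tissue. It had 67.8, 138.9 and 579 count equivalents in chow and 422, 502 and 1394 in high fat (2.24 ± 0.38, limma adjusted p = 5.04e-05), and chow 3 alone lay within the high fat range. Its response exceeded that of the other 7 strains by 1.58 ± 0.41 (0.0292, and 0.114 without high fat 6 and chow 1), and it rose in WSB/EiJ as well (1.72). Serpina3c, a member of a large serpin cluster, had medians of 49.1 and 249 (2.36 ± 0.67, 0.0495), and leaving out any of 10 single mice ended the call. Without the 4 libraries its change was 3.07 (0.0202). C6, a complement component, had 7881, 11393 and 17709 in chow and 15524, 20193 and 27319 in high fat (0.80 ± 0.18, 0.00529). The C6 response exceeded that of the other 7 strains by 0.94 ± 0.19 (0.00207).

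Tff3, a trefoil peptide, fell from 44.2, 162.7 and 428 count equivalents in chow to 10.7, 25.6 and 45.2 in high fat (-2.39 ± 0.53, limma adjusted p = 0.00414). Mup20, a male urinary pheromone protein, had 32.6 to 101.1 in chow and 56.7 to 409 in 7 high fat mice, but 13500 in high fat 4. It was called (1.94 ± 0.45, 0.00585), but not without high fat 4. Nor was it called without the 4 libraries marked by Iigp1 (1.10, 0.21). Medians of Mup20 in the other 7 strains were 649 to 50206. The taste receptor gene Tas1r1 was at 1.81 and 0.998 in high fat 3 and high fat 4 and at 98.2 to 1560 in the other 14 CAST mice. Its call (-2.32 ± 0.61, 0.0272) was lost without the 4 libraries marked by Iigp1 (-0.71, 0.748).

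Lists of genes that differ between male and female liver were mixed. Of 19 male-biased genes 2 rose (C6 and Mup20), and 17 of 19 changes were positive with a median of 0.28. Over all genes 0.51% rose, and 6905 of 13533 changes were positive. The Mup20 call rests on high fat 4. Of 17 female-biased genes Cyp3a16 rose and 2 fell, beside 0.658% of all genes called lower. Abcd2, a peroxisomal transporter of very long fatty acids, went from a median of 49.2 to 13.04 count equivalents (-1.83 ± 0.43, limma adjusted p = 0.00692), and Slc22a26, an organic anion carrier, from 23.9 to 3.10 (-2.80 ± 0.57, 0.00102). Both responses were lower than those of the other 7 strains (-2.18 ± 0.46, 0.00224, and -2.66 ± 0.61, 0.00855), though for Slc22a26 the adjusted p was 0.0578 without the 4 libraries and 0.0713 without high fat 6 and chow 1.

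Limma called 0 genes in 8 further lists. At an unadjusted p under 0.05 they held 1 of 19 genes of bile acid and sterol export. They also held 3 of 20 of the citric acid cycle and respiratory chain. Glutathione and metal response had 3 of 22 and the unfolded protein response 1 of 22. The same count was 1 of 19 for the acute phase and 1 of 20 for interferon response. It was 2 of 17 for the clock and 0 of 13 for cell division. Over all genes tested it was 1459 of 13533. Among unfolded protein response genes 21 of 22 changes were positive, with a median of 0.18. Among citric acid cycle and respiratory chain genes 18 of 20 were, with a median of 0.12. Over all genes 6905 of 13533 were positive. The list median of the citric acid cycle and respiratory chain was 0.64 in high fat 6 and -0.45 in chow 6. It was also negative in high fat 3, 4 and 8. For the unfolded protein response the list median was highest in chow 6 (0.5225), with 0.5194 in high fat 6. The list median of acute phase genes was 1.78 in chow 6 and -1.12 in high fat 1.

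The CAST response to diet differed from the mean response of the other 7 strains in 0.857% of genes, 36 with a higher value in CAST (0.266%) and 80 with a lower one (0.591%). Of the genes called for diet in CAST (1.17% of those tested), 67 were also called in this comparison in the same direction. Both comparisons contain the same CAST change, so this overlap arises in part by construction and is not separate evidence. The overlap that the shared change alone would give was not tested. Against PWK/PhJ alone 33 genes differed (0.244%) and against WSB/EiJ 53 (0.392%), both also strains derived from wild mice. Leaving NZO/HILtJ out of the mean gave 90 genes, and leaving out the 4 CAST libraries marked by Iigp1 gave 87.

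**Figure D4:**
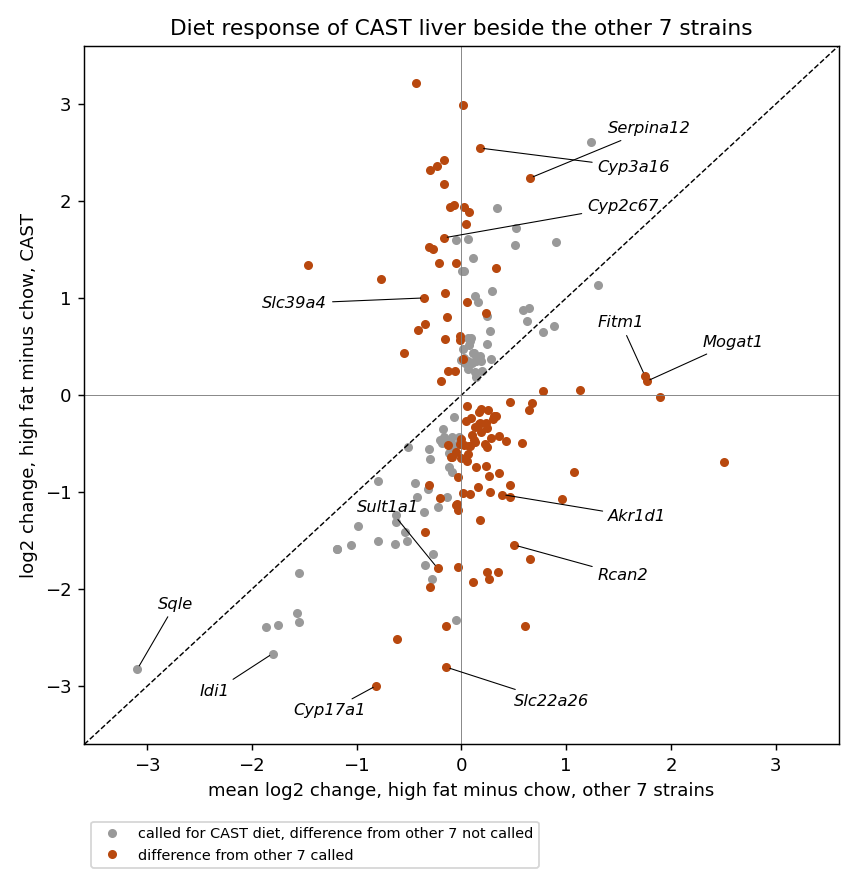
Log2 change in CAST (vertical) against the mean log2 change in the other 7 strains (horizontal) for genes called for CAST diet or for the difference, orange where the difference was called and grey where it was not, with a dashed line of equal change. Sqle lies near the line, whereas Cyp2c67, Cyp3a16, Rcan2 and Akr1d1 changed in CAST with other-strain means between -0.17 and 0.51.

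Genes whose response was lower in CAST included Rcan2, an inhibitor of the phosphatase calcineurin. It had 52.6, 113.8 and 167.5 count equivalents in chow and 18.5, 37.2 and 68.8 in high fat (-1.54 ± 0.30, limma adjusted p = 0.000467). In the other strains its change ran from -0.02 in A/J to 1.19 in NZO/HILtJ, and the difference from their mean was -2.05 ± 0.32 (1.02e-05). Slc16a7, a monocarboxylate transporter, had 42.7, 72.3 and 243 in chow and 23.5, 42.4 and 49.7 in high fat (-1.05 ± 0.23, 0.00292). Its difference was -1.51 ± 0.24 (2.29e-05), but without the 4 libraries marked by Iigp1, where chow 1 and chow 3 are highest, the change within CAST was not called (0.231). Nor was it without high fat 6 and chow 1 (0.1). Tmem106b, a lysosomal membrane protein, fell by 0.65 ± 0.11 within CAST and differed by the same amount from the other strains (0.000441). Nudt12, which hydrolyses NAD(P)H, was not called for diet (-0.34 ± 0.11, 0.0899) but differed (-0.59 ± 0.11, 0.000788, and 0.0724 without the 4 libraries).

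Genes whose response was higher in CAST included Slc39a4, the zinc importer ZIP4. It had 43.2, 186 and 372 count equivalents in chow and 178, 367 and 452 in high fat (1.00 ± 0.21, limma adjusted p = 0.00133). It fell in C57BL/6J and PWK/PhJ, both by 1.08, and the CAST response was higher than the mean of the other strains by 1.36 ± 0.22 (2.8e-05) and than PWK/PhJ by 2.08 (6.74e-07). Nop16, a nucleolar protein of ribosome assembly, had medians of 194 and 325 (0.61 ± 0.12, 0.000525) and differed by 0.62 ± 0.13 (0.00164). Ccdc162 rose by 1.31 ± 0.22 and differed by 0.98 ± 0.23 (0.0124, and 0.0519 without high fat 6 and chow 1). The pheromone receptor pseudogene Vmn1r-ps128 went from a median of 31.1 to 170 (1.94 ± 0.32, 3.18e-05) and differed by 1.91 ± 0.34 (0.000209), and its change was 2.603 without the 4 libraries.

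**Figure D5:**
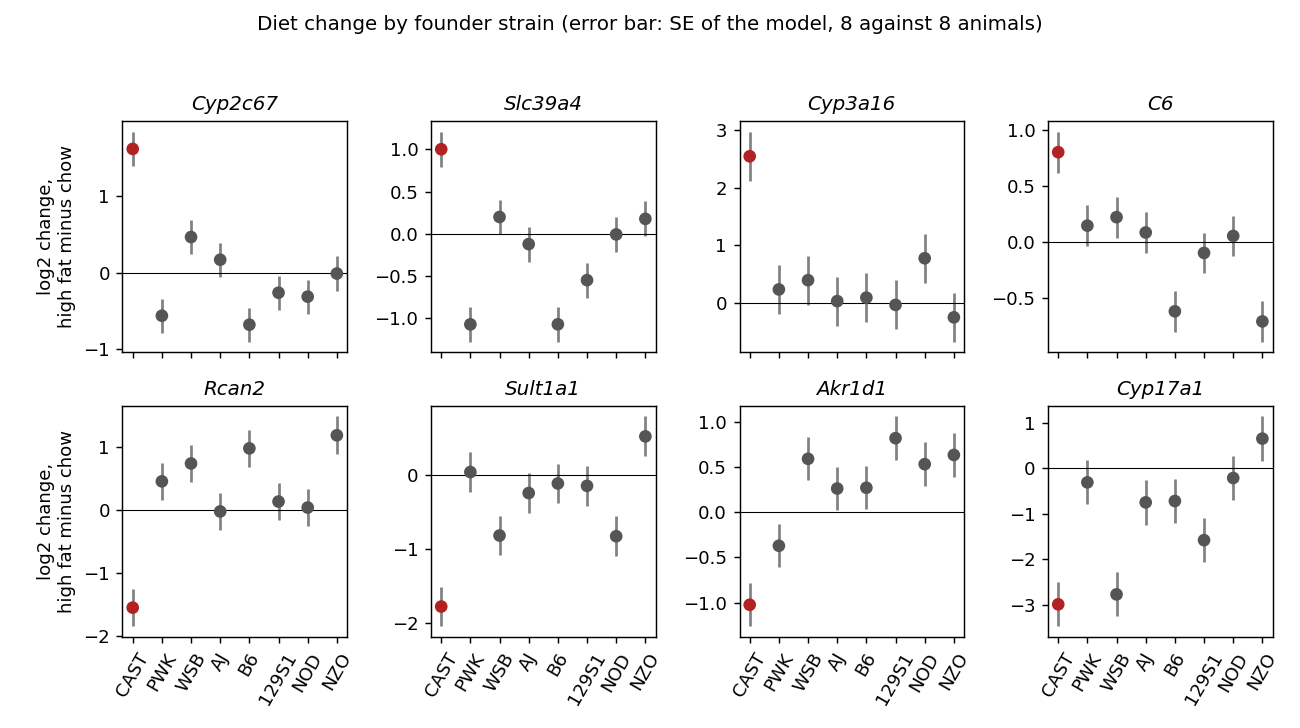
Log2 change, high fat minus chow, of 8 genes in each founder strain (AJ is A/J, B6 is C57BL/6J), with the standard error of the model as bars. CAST (red) is the highest strain in the upper row and the lowest in the lower row, with WSB/EiJ next to it for Cyp17a1.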

How the data were processed

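Per the submitters' processing notes, the tools were CASAVA 1.8.0, Bowtie 0.12.8 and RSEM 1.2.1, with NCBIM37 (mm9). The deposited founder table holds a signal per gene (24965 genes) that the authors scaled: the upper quartile of each library is 1. Its name says that reads were aligned to strain genomes. Its low values are spaced in steps, but only 82.8% (80.6% to 84.9%) came out whole within 0.1 below 20.5, so no count model was used. Values were multiplied by 114.7448, the median step. Symbols came from GENCODE M21 (22760 matched), and 0 columns were left without a label.

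A gene was tested where 8 or more of the 128 libraries reached 10 count equivalents, 13533 in all, and 158 were called for CAST diet. The tool was limma 3.58.1, with trend, in R 4.3.3, on log2(x + 1) with 16 group means. It was also run on simulated data in which all groups had the same spread and the strains did not differ. That run cannot say how far the spread shared by all groups affects the calls. Named genes were the 12 largest called changes each way with a mean of at least 5, the 6 smallest p each way against the other strains, up to 4 per list, and a fixed set. Genes outside this rule are marked, and some genes are not reported here. Members, lists and rules were chosen with earlier results of these data known.

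Each of 8 lanes held 1 mouse of each strain and diet. Deviations of the 2 CAST libraries of a lane correlated at -0.17 to 0.04, so the lane was not taken to pair them, and it served as an alternative block.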

Additional observations from a re-analysis of the deposited data

Results flagged for a closer look

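Over both diet groups of 79 genes, 23 single values lay far from the other mice of their group by Dixon's test, which chance flags in about 1 in 20 groups. High fat 6 supplied 7 of them: the lowest values of Idi1 (0 count equivalents), Tmem106b (450.7) and Nudt12 (262.7), and the highest of Apoc3 (21828), Fabp2 (1136), Npc2 (486.6) and Pemt (436.9). Chow 1 held the highest values of Igfbp1 (30371), Acot2 (399.6) and Klf11 (252.2) and the lowest of Acox3 (153.4) and Glul (4068). In chow 6 Sult1a1 (423), Apoc3 (6149) and Gls2 (1512) were lowest. Among the libraries marked by Iigp1, high fat 4 was highest for Mup20 (13500) and Cyp4a14 (104.8), high fat 3 was lowest for Slc39a4 (178) and highest for Glul (12917), and chow 3 was highest for Serpina12 (579) and Ncam2 (49.5). High fat 7 was lowest for Cyp2c67 (972). Mogat1 was at 0.948 in chow 7 and at 0 in the other 7 chow mice, a single read at this depth. The causes were not tested.

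The diet response in CAST differed from the mean response of the other 7 strains in 33 of the described genes by limma's test of the difference itself. Some of these genes were named for this test or chosen after their values were seen, so their number measures no rate. Over all genes tested 0.857% differed. Values are CAST minus the other strains on the log2 scale. Genes of steroid, bile acid and xenobiotic metabolism gave -2.18 for Cyp17a1, -1.42 for Akr1d1, 0.91 for Cyp2c70, 2.37 for Cyp3a16, 1.79 for Cyp2c67, -1.56 for Sult1a1, 0.99 for Gstm6 and 1.08 for Gstp1. Secreted proteins gave 1.58 for Serpina12, 2.595 for Serpina3c, 2.05 for Mup20 and 0.94 for C6. Genes of amino acids and lipids gave -0.80 for Cth, -2.18 for Abcd2, -2.04 for Acot2, -2.99 for Acot3, -1.55 for Fitm1, -1.62 for Mogat1 and 0.61 for Acox3. Transporters gave -2.66 for Slc22a26, 1.36 for Slc39a4 and -1.51 for Slc16a7. The remaining genes gave -2.05 for Rcan2, -0.65 for Tmem106b, -0.59 for Nudt12, 0.62 for Nop16, 0.98 for Ccdc162, 1.91 for Vmn1r-ps128, -0.86 for Klf11, -1.10 for Hpgd, -0.54 for Nr5a2, -2.03 for Ncam2 and 3.65 for Wfdc12. The difference was not called without the 4 libraries marked by Iigp1 for Cyp2c70 (adjusted p = 0.288), Mup20 (0.179), Acot2 (0.47), Acot3 (0.353), Acox3 (0.697), Klf11 (0.316), Mogat1 (0.0525), Nudt12 (0.0724) or Slc22a26 (0.0578). Without high fat 6 and chow 1 it was not called for Acot2 (0.281), Acot3 (0.167), Acox3 (0.202), Ccdc162 (0.0519), Cyp2c70 (0.0757), Gstp1 (0.141), Klf11 (0.124), Nr5a2 (0.269), Serpina12 (0.114) or Slc22a26 (0.0713). The difference for Cyp17a1 was -2.94 without the 4 libraries.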

How the results depend on the processing

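Calls for diet in CAST, 1.17% of genes (69 higher and 89 lower), became 1.13% (0.537% higher and 0.593% lower) of a longer list with no filter on low values, 282 genes in all. They became 0.214% (0.0665% and 0.148%), or 29 genes, with the CAST libraries alone, and 0.296% (0.111% and 0.185%), or 40 genes, with limma's treat at a null fold of 1.2. The lane as replicate block gave 64 higher and 85 lower (1.1%) in the fit of all libraries. In the CAST libraries alone limma with that block called 0, and 0 cholesterol genes. There 826 of 13533 genes were at an unadjusted p under 0.05. Without the block it called 6 cholesterol genes there. Without the 4 libraries marked by Iigp1, 0.318% of genes were higher. Leaving out 1 mouse gave 0.938% (without chow 1) to 1.51% (without high fat 6), 0.384% to 0.569% higher, 0.554% to 0.983% lower, and 11 to 13 cholesterol genes.

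Against the other 7 strains, 0.857% became 0.801% of the longer list with no filter (200 genes), 1.44% with library weights, 0.177% with treat, and 0.658% to 1.06% without 1 mouse. Against PWK/PhJ, 0.244% became 0.111% with treat and 0.177% to 0.288% without 1 mouse. Against WSB/EiJ, 0.392% became 0.103% with treat, 0.65% without high fat 6 and chow 1, and 0.325% to 0.584% without 1 mouse. The causes were not tested. The settings that leave out high fat 6 and chow 1, or the 4 libraries, were chosen after seeing the data. No called change of a described gene reversed its direction in the settings run. Some calls for diet were lost in many of 30 other settings: Serpina3c in 17, Srebf2 in 16, Lss in 15 and Ighm in 13. Scp2 lost its call in 12, Gls2 in 11, and Nr5a2 and Tas1r1 in 10 each. For each of these genes, leaving out certain single mice was among those settings.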

Other observations

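Some called genes lay outside the rule for named genes and were chosen after their values were seen. Klf11, a transcription repressor of the Krüppel-like family, had 66.4 to 252.2 count equivalents in chow and 34.3 to 66.1 in high fat, without overlap (-1.06 ± 0.20, limma adjusted p = 0.000457). Acox3, a peroxisomal oxidase of branched fatty acids, had 153.4 to 701 in chow and 734 to 1168 in high fat (0.84 ± 0.16, 0.000215). Without the 4 libraries marked by Iigp1, neither was called (0.0565 and 0.151). Agxt, which detoxifies glyoxylate, fell from a median of 803 to 350 (-0.97 ± 0.17, 0.000152), and Hpgd, which inactivates prostaglandins, from 187 to 86.7 (-1.02 ± 0.21, 0.000925).

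Npc2, which moves cholesterol out of lysosomes, fell by 0.46 ± 0.11 (limma adjusted p = 0.00585). Nr5a2, a nuclear receptor of bile acid genes, fell by 0.51 ± 0.14 (0.0288, but by 0.33 with 0.292 without high fat 6 and chow 1), and Pemt, which makes phosphatidylcholine, by 0.43 ± 0.11 (0.0151, and 0.219 without the 4 libraries). Scp2, a sterol carrier, rose by 0.35 ± 0.09 (0.0316), a call that was lost in 12 of 30 other settings.

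Wfdc12, a protease inhibitor gene, rose from 4.74, 7.87 and 17.7 count equivalents in chow to 20.95, 97.5 and 269 in high fat, without overlap (3.22 ± 0.45, limma adjusted p = 5.38e-07, and 3.85 without the 4 libraries). Ncam2, a cell adhesion gene, was at 5.52 to 49.5 in chow and 0 to 4.73 in high fat (-1.93 ± 0.26, 3.34e-07), levels at which 1 read weighs heavily.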
